A study of Mus musculus with 2 samples.

Results

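Glutathione transferases, glutathione peroxidases, peroxiredoxins and thioredoxins are the thiol-based enzymes with which a cell conjugates reactive compounds and reduces peroxides. The genes described here were chosen by name: protein-coding genes of the deposited table whose symbols begin with Gsta, Gstm, Gsto, Gstp or Gstt, Gpx or Prdx and a digit, or with Txn. There were 53 such genes among 22058 protein-coding genes and 53801 genes in all, and 48 of them reached 1 TPM (a gene's length-corrected share of all transcripts, scaled to a common total) in at least 1 of the 2 libraries. The other 5, Gsta1, Gstm3, Gstp3, Gpx2 and Gpx5, stayed below 1 TPM in both libraries.

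The RNA was described as that of mouse testis spermatocytes, the cells in which meiosis takes place. Markers of other testis cells, given below, were present as well. Both library titles carry the mark 4N, which the labels do not explain, and the shared extraction protocol names sorted spermatocytes as well as whole testis. One library was labelled as a knockout of SMC1beta, the meiosis-specific SMC1 subunit of cohesin, with overexpression of SMC1alpha, the general form, and the other as SMC1beta wild type. The labels give neither the age of the mice nor the promoter behind the overexpression. No SMC1beta knockout lacking the SMC1alpha overexpression was used here, so the effects of the 2 alterations cannot be told apart. Smc1b stood at 62.9 TPM in the labelled knockout, against 76.1 TPM in wild type, and Smc1a at 28.8 TPM in the labelled knockout and 0.51 TPM in wild type. Because Smc1b RNA was still present and the table cannot show whether a part of it is deleted, that library is called the labelled knockout. Each genotype had 1 library and the table holds no read counts, so differences have no replicate check and no p-value, and the depth behind each value is unknown. "Higher" and "lower" refer to this pair of libraries.

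Glutathione transferases join glutathione to electrophilic compounds and fall into classes, of which alpha, mu, omega, pi and theta are covered here. Glutathione peroxidases reduce peroxides with electrons from glutathione, several of them through a selenocysteine in the active site. Peroxiredoxins reduce peroxides through a cysteine, and most are recharged by thioredoxin, which thioredoxin reductase reduces in turn with NADPH. Testis is known for germ cell forms of several of these enzymes and for Gpx4, which becomes a structural protein of the sperm midpiece.

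Of the genes that differed 2-fold or more between the libraries, most were higher in the labelled knockout. Ratios are log2 values, labelled knockout over wild type, after 1 TPM was added to each level, a scale that shrinks differences of genes with low values, and a gene is counted when it differs 2-fold or more on that scale. Of the 48 genes, 20 (41.7%) were 2-fold or more higher in the labelled knockout, against 18.7% of the 15000 protein-coding genes at 1 TPM or more. Another 10 (20.8%) were 2-fold or more lower, against 16.5% of protein-coding genes, a share close to the background. The remaining 18 lay within 2-fold, 9 with a positive and 9 with a negative ratio. Among the higher genes, Gstp2, Gstt1, Gpx3, Txnrd2 and Txndc5 reached 1 TPM only in the labelled knockout, so the filter fixed their direction. The same held for Gpx7, which lay within 2-fold. Every lower gene reached 1 TPM in both libraries. The same filter was applied to all protein-coding genes. The median ratio was 0.64, against -0.05 for protein-coding genes and -0.22 for all genes at 1 TPM or more. Rescaling the libraries in 3 other ways moved the protein-coding median to between 0.11 and 0.36, and the median of these genes stayed between 0.67 and 0.68 above it. Of the 48 genes, 2 changed the sign of their ratio under at least 1 rescaling, Gstm4 and Txnl4a, neither of them 2-fold apart.

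**Figure D1:**
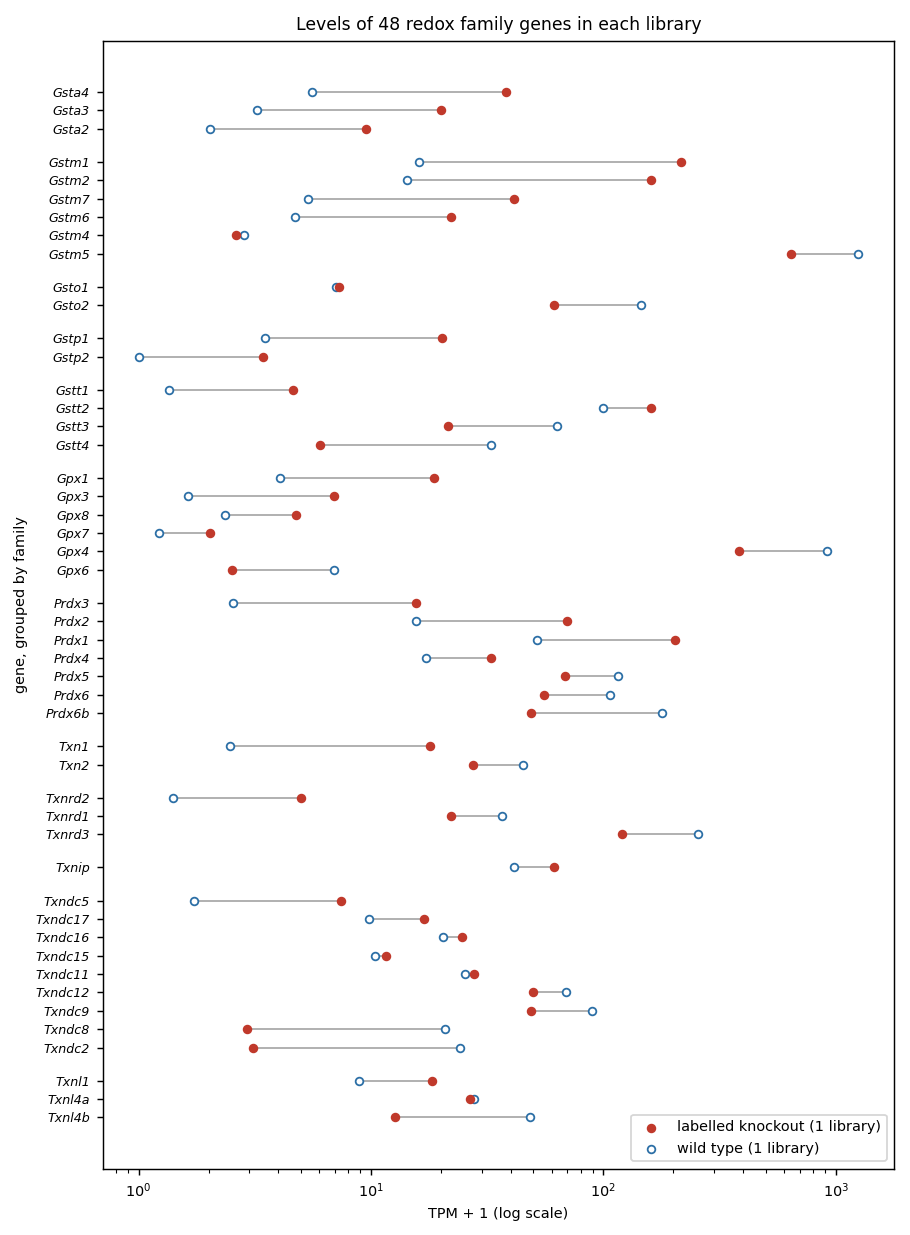
Level of each of the 48 genes at 1 TPM or more, as TPM + 1 on a log axis, in the labelled knockout (filled red) and in wild type (open blue), 1 library each, with genes grouped by family and ordered by ratio. Every alpha gene shown and Gstp1 lie further right in the labelled knockout, while in most other families the genes spread in both directions. Gstp2 is drawn at 1 in wild type, where it was listed at 0. Gstp2, Gstt1, Gpx3, Gpx7, Txnrd2 and Txndc5 reached 1 TPM only in the labelled knockout.

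The counts differed with the level of the gene. Of 17 members with a mean over both libraries of 30 TPM or more, 4 were 2-fold or more higher and 5 2-fold or more lower; among all 4138 protein-coding genes at that level, 4.81% were higher and 23.7% lower. Of the 31 members below that mean, 16 were higher and 5 lower, against 24% and 13.8% of 10862 protein-coding genes. The boundary of 30 TPM was chosen after the values were seen. The 4 abundant genes that were higher were Gstm1, Gstm2, Prdx1 and Prdx2, and the 5 that were lower were Gpx4, Txnrd3, Prdx6b, Gsto2 and Gstt3. Summed over all 53 genes, the families held 2811 TPM in the labelled knockout and 3777 TPM in wild type. As a share of protein-coding TPM this was 0.574% in the labelled knockout and 0.604% in wild type, since protein-coding genes took 49.0% of the labelled knockout library and 62.6% of the wild-type library.

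**Figure D2:**
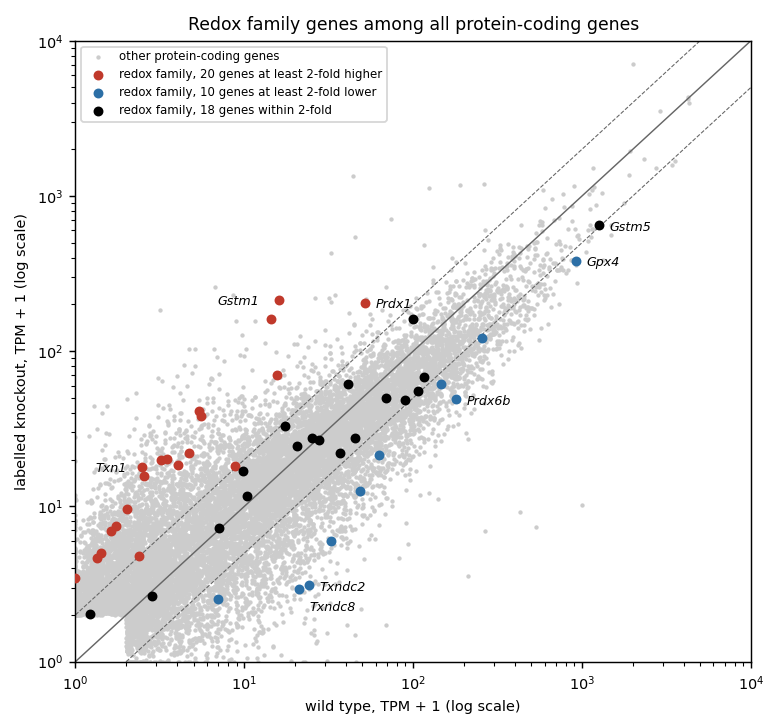
Each point is 1 protein-coding gene at 1 TPM or more, with TPM + 1 in wild type on the horizontal and in the labelled knockout on the vertical log axis; coloured points are the 48 genes, the solid line marks equal values and the dashed lines 2-fold. The 20 higher genes lie mostly at the low end of the wild-type axis, and Gstm5 and Gpx4 lie at its upper end, near or below the lower dashed line.

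Markers of other testis cells were present in both libraries, so the values cannot be read as those of spermatocytes alone. These markers differed between the same 2 libraries, and their part in the differences below was not tested. All 9 listed markers of round and elongating spermatids, the cells that follow meiosis, were 2-fold or more lower in the labelled knockout, with a summed level of 75.8 TPM there and 2562 TPM in wild type. All 7 Leydig cell markers were higher, with a sum of 1599 TPM in the labelled knockout and 61.8 TPM in wild type, as were all 8 Sertoli cell markers (431 TPM in the labelled knockout and 66.6 TPM in wild type) and 7 of 8 spermatogonium markers (72.1 TPM in the labelled knockout and 10.5 TPM in wild type). Of 6 macrophage markers 4 reached 1 TPM and were higher, with a sum over the 6 of 22.9 TPM in the labelled knockout and 2.32 TPM in wild type, where C1qa was listed at 0. Of 4 peritubular myoid markers 3 reached 1 TPM and 2 were higher, with sums of 4.77 TPM in the labelled knockout and 1.27 TPM in wild type. Every macrophage and myoid marker counted as higher reached 1 TPM only in the labelled knockout, so its direction followed from the filter. The same held for Lhcgr of the Leydig list, Sox9 and Gata4 of the Sertoli list, and the spermatogonium markers Zbtb16, Sall4, Dmrt1, Sohlh1 and Kit. The 4 red blood cell genes summed to 6.49 TPM in the labelled knockout and 3.93 TPM in wild type, with 1 of 3 at 1 TPM or more higher. The 5 epididymis markers summed to 1.05 TPM in the labelled knockout and 0.40 TPM in wild type, and 0 of them reached 1 TPM. Of 6 spermatocyte markers 3 were higher and 2 lower, and they summed to 3126 TPM in the labelled knockout and 4410 TPM in wild type. In RNA from many cells, fewer cells of a type and less RNA per cell cannot be told apart.

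The mu class of glutathione transferases held the most abundant gene and the largest ratios of all 48. Gstm5 (ENSMUSG00000004032; mm10 chromosome 3, 107895821 to 107898686, plus strand), the mu form known from testis and brain, stood at 645 TPM in the labelled knockout, against 1252 TPM in wild type. It ranked 40th among protein-coding genes in the labelled knockout and 17th in wild type. Its ratio of -0.96 lay just short of 2-fold. The neighbouring genes went the other way.

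Gstm1 (ENSMUSG00000058135; chromosome 3, 108012255 to 108017973, minus strand), a broadly expressed mu enzyme, stood at 214 TPM in the labelled knockout, against 15.1 TPM in wild type, a ratio of 3.74 and the highest of the 48 genes. Gstm2 stood at 160.1 TPM in the labelled knockout, against 13.3 TPM in wild type, a ratio of 3.49. Gstm7 had 40.1 TPM in the labelled knockout, against 4.37 TPM in wild type, and Gstm6 had 21.03 TPM in the labelled knockout against 3.72 TPM in wild type. Gstm4 did not move with them: it had 1.63 TPM in the labelled knockout and 1.84 TPM in wild type, a ratio of -0.11 whose sign turned under 2 of the 3 rescalings. Gstm3, the gene between Gstm6 and Gstm2, stayed at 0.26 TPM in the labelled knockout and 0.047 TPM in wild type.

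Gstm5 therefore made up 59.6% of mu-class TPM in the labelled knockout and 97.0% in wild type. Without it the class summed to 437 TPM in the labelled knockout and 38.3 TPM in wild type, 11.4-fold higher. With it, the class stood at 1082 TPM in the labelled knockout, against 1291 TPM in wild type, and this direction was turned by 2 of the 3 rescalings. Gstm5 lies on the plus strand and the other 6 genes on the minus strand, in the order Gstm5, Gstm7, Gstm6, Gstm3, Gstm2, Gstm1, Gstm4. Its coding sequence was 63.9% identical to that of Gstm1 and 71.0% to that of Gstm2. None of its 871 transcript windows of 75 bases, the read length, occurred in another gene, whereas 20.4% of the windows of Gstm1 did, most often in Gstm2-ps1 and Gstm3, which both stayed under 1 TPM in each library. The antisense gene 4933431E20Rik overlaps 13.9% of the exon bases of Gstm5 and had 14.8 TPM in the labelled knockout, against 23.8 TPM in wild type.

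**Figure D3:**
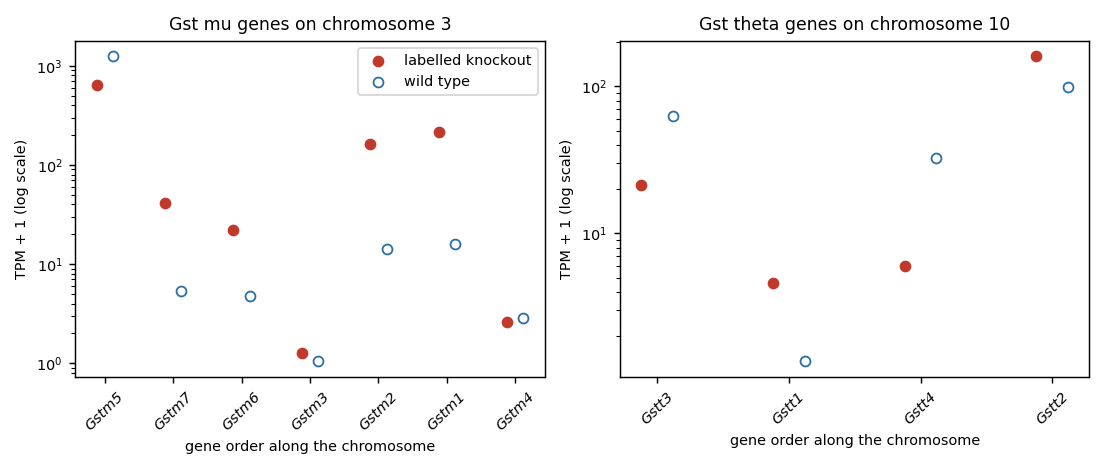
TPM + 1 on a log axis of the mu transferase genes on chromosome 3 and the theta transferase genes on chromosome 10, in their order along the chromosome, in the labelled knockout (filled red, left of each pair) and wild type (open blue), 1 library each. Neighbouring genes go opposite ways: Gstm5 is lower and Gstm7, Gstm6, Gstm2 and Gstm1 are higher in the labelled knockout, and Gstt3 and Gstt4 are lower while Gstt1 and Gstt2 are higher.

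The 3 alpha genes that reached 1 TPM were higher in the labelled knockout, and so was Gstp1 of the pi class. Gsta4, whose enzyme conjugates aldehydes formed from oxidised lipids, stood at 37.3 TPM in the labelled knockout, against 4.56 TPM in wild type. Gsta3 stood at 19.0 TPM in the labelled knockout, against 2.23 TPM in wild type, and Gsta2 at 8.55 TPM in the labelled knockout against 1.03 TPM in wild type. The 3 genes were between 8.18-fold and 8.51-fold higher, so each kept nearly its share of the class: Gsta4 made up 57.6% of alpha-class TPM in the labelled knockout and 58.4% in wild type. Gsta1 was listed at 0 in both libraries, but its coding sequence was 97.5% identical to that of Gsta2. Other genes shared 86.3% of the windows of Gsta1, most often Gm3776, and 46.9% of those of Gsta2, most often Gm10639. Gm3776 had 0.15 TPM in the labelled knockout and was listed at 0 in wild type, and Gm10639 was listed at 0 in both. The split among these genes is therefore uncertain.

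Gstp1, the main pi enzyme, stood at 19.2 TPM in the labelled knockout, against 2.51 TPM in wild type. Gstp2 had 2.43 TPM in the labelled knockout and was listed at 0 in wild type. Like Gstt1, Gpx3, Txnrd2 and Txndc5, it reached 1 TPM only through the labelled knockout, so its direction followed from the filter. The coding sequences of the pair were 98.1% identical, and 57.7% of the windows of Gstp1 and 68.2% of those of Gstp2 were shared, so their split is also uncertain. Together the 3 pi genes summed to 21.7 TPM in the labelled knockout and 2.51 TPM in wild type.

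The omega and theta classes split within themselves. Gsto2, whose enzyme reduces dehydroascorbate, stood at 60.2 TPM in the labelled knockout, against 144.7 TPM in wild type, a ratio of -1.25 that fell short of 2-fold under 2 rescalings (-0.85 and -0.91). Gsto1, its neighbour on chromosome 19, stood at 6.28 TPM in the labelled knockout, against 6.09 TPM in wild type. In the theta class Gstt4 stood at 5.03 TPM in the labelled knockout, against 31.8 TPM in wild type, and Gstt3 at 20.5 TPM in the labelled knockout against 61.9 TPM in wild type. Gstt1, whose enzyme acts on small halogenated compounds, stood at 3.62 TPM in the labelled knockout, against 0.35 TPM in wild type. Gstt2, the most abundant of the class, had 160.3 TPM in the labelled knockout and 98.4 TPM in wild type, a ratio of 0.70 that passed 2-fold under 2 rescalings (1.11 and 1.05). The class sum was nearly equal, at 189.4 TPM in the labelled knockout and 192.5 TPM in wild type, with a direction that turned under each rescaling. What differed was its makeup: Gstt2 supplied 84.6% of it in the labelled knockout and 51.1% in wild type, and Gstt3 supplied 10.8% in the labelled knockout and 32.2% in wild type. Gstt3 shares 25% of its windows with Gm20441, an overlapping gene listed at 0 in the labelled knockout and at 0.31 TPM in wild type.

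The glutathione peroxidases differ in the codon at their active site, which is TGA, read as selenocysteine, in some members and a cysteine codon in others. The coding stretches around it are shown for the 6 members at 1 TPM or more, from GENCODE M21 transcripts, with the codon in capitals.
Gpx1: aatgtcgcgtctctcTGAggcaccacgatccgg
Gpx3: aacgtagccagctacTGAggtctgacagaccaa
Gpx4: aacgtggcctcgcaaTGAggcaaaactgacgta
Gpx6: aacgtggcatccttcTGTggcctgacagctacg
Gpx7: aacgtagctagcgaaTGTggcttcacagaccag
Gpx8: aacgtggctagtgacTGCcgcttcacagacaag

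Gpx4 (ENSMUSG00000075706; chromosome 10, 80047166 to 80056439, plus strand), which reduces peroxides in membrane lipids, stood at 381 TPM in the labelled knockout, against 916 TPM in wild type. Its ratio was -1.26 and fell short of 2-fold under 2 rescalings (-0.86 and -0.91). It supplied 92.7% of all Gpx TPM in the labelled knockout and 98.8% in wild type. The gene gives mitochondrial, cytosolic and nuclear forms, which a value per gene cannot separate. Of its transcript windows 55.3% also occur in a copy, most often the pseudogene Gpx4-ps2, which was listed at 0 in both libraries. The spermatid markers named above were lower in the same library as Gpx4.

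The selenocysteine forms Gpx1 and Gpx3 were higher in the labelled knockout, where Gpx4 was lower. Gpx1, the cytosolic form, stood at 17.6 TPM in the labelled knockout, against 3.07 TPM in wild type, and Gpx3, the form secreted into plasma, at 5.92 TPM in the labelled knockout against 0.63 TPM in wild type. Gpx2 stayed at 0.10 TPM in the labelled knockout and 0.28 TPM in wild type. The cysteine forms were also split. Gpx6, known from the olfactory epithelium, stood at 1.54 TPM in the labelled knockout, against 5.95 TPM in wild type, while Gpx8, a form of the endoplasmic reticulum, stood at 3.76 TPM in the labelled knockout against 1.36 TPM in wild type. Gpx7, also of the endoplasmic reticulum, had 1.04 TPM in the labelled knockout and 0.23 TPM in wild type. Gpx5, a secreted form of the epididymis, had 0.030 TPM in the labelled knockout and was listed at 0 in wild type. Without Gpx4 the family summed to 29.98 TPM in the labelled knockout and 11.5 TPM in wild type, 2.60-fold higher. With it the sums were 411 TPM in the labelled knockout and 928 TPM in wild type.

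Members with a selenocysteine codon did not share a direction. A TGA within the reading frame was found in 7 of the 53 genes: Gpx1, Gpx2, Gpx3 and Gpx4 as above, and all 3 thioredoxin reductases, where it is the third codon from the end with the stop counted. Of the 6 at 1 TPM or more, Gpx1, Gpx3 and Txnrd2 were 2-fold or more higher in the labelled knockout, Gpx4 and Txnrd3 2-fold or more lower, and Txnrd1 within 2-fold. Gpx3 and Txnrd2 reached 1 TPM only in the labelled knockout. Of 8 genes for selenocysteine insertion and selenium transport, 1 was 2-fold or more higher and 0 lower. Among all protein-coding genes the shares were 18.7% and 16.5%. The higher gene was Selenop, the selenium carrier of plasma, at 60.7 TPM in the labelled knockout and 5.21 TPM in wild type. Sephs2, which makes the selenium donor and was the most abundant of the 8, stood at 139.5 TPM in the labelled knockout, against 214.9 TPM in wild type.

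Among the peroxiredoxins the sum was almost the same in both libraries, at 489 TPM in the labelled knockout and 483 TPM in wild type, and its makeup differed. Prdx1 (ENSMUSG00000028691; chromosome 4, 116685544 to 116700822, plus strand), a cytosolic enzyme of the 2-cysteine type, stood at 203 TPM in the labelled knockout, against 51.0 TPM in wild type. Its share of peroxiredoxin TPM was 41.6% in the labelled knockout and 10.6% in wild type. Prdx2, its close relative, stood at 69.1 TPM in the labelled knockout, against 14.6 TPM in wild type, and Prdx3, the mitochondrial form, at 14.7 TPM in the labelled knockout against 1.54 TPM in wild type. These 3 genes had ratios of 1.97, 2.17 and 2.62. Short stretches of Prdx2 overlap Junb (5.67% of its exon bases) and Rnaseh2a (5.80%) on the opposite strand. Junb stood at 23.3 TPM in the labelled knockout, against 2.71 TPM in wild type, and Rnaseh2a at 275.8 TPM in the labelled knockout against 937 TPM in wild type.

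Prdx6b (ENSMUSG00000050114; chromosome 2, 80292472 to 80295356, plus strand) was the most abundant peroxiredoxin in wild type and the only one 2-fold or more lower. It stood at 48.05 TPM in the labelled knockout, against 178.8 TPM in wild type, which was 9.83% of the family in the labelled knockout and 37.0% in wild type. Prdx6b has 1 exon, and its coding sequence was 92.9% identical to that of Prdx6, yet neither gene shared a window of 75 bases with any other, so reads of that length tell the pair apart. Prdx6, the 1-cysteine enzyme that also acts on phospholipids, stood at 54.6 TPM in the labelled knockout, against 105.5 TPM in wild type, a ratio of -0.94. Prdx5 had 67.2 TPM in the labelled knockout and 115.1 TPM in wild type. Trmt112 on the opposite strand overlaps 19.1% of the exon bases of Prdx5. It had 38.3 TPM in the labelled knockout and 24.7 TPM in wild type. Prdx4, the form of the secretory pathway, had 31.8 TPM in the labelled knockout and 16.3 TPM in wild type, a ratio of 0.92 that passed 2-fold under all 3 rescalings (1.08 to 1.33). Prdx4 is the only X-linked gene of the 53, and the median ratio of 620 X-linked protein-coding genes was 1.30.

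**Figure D4:**
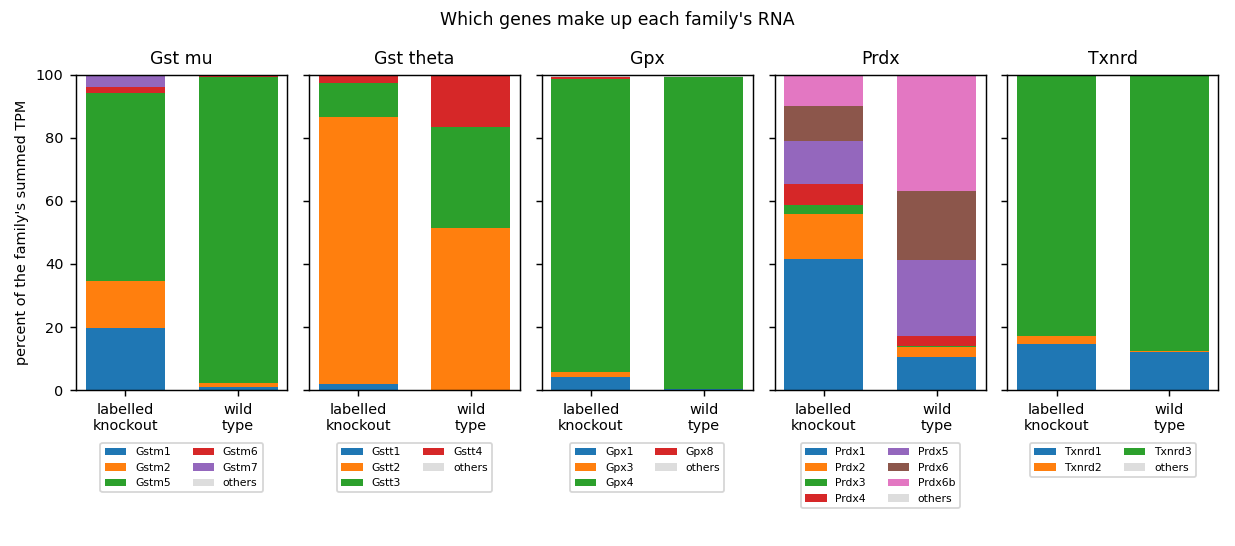
Share of each family's summed TPM supplied by each gene, in percent, in the labelled knockout (left bar) and wild type (right bar), 1 library each; genes under 0.9% in both libraries are pooled as others. Gstm5 falls to 59.6% of the mu class in the labelled knockout, against 97.0% in wild type, and Prdx6b to 9.83% of the peroxiredoxins in the labelled knockout, against 37.0% in wild type, while Gpx4 and Txnrd3 supply most of their families in both.

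Thioredoxin and its reductase did not share a direction within a compartment. Txn1, the cytosolic thioredoxin, stood at 17.0 TPM in the labelled knockout, against 1.48 TPM in wild type, a ratio of 2.86. Txn2, the mitochondrial one, stood at 26.6 TPM in the labelled knockout, against 44.3 TPM in wild type, a ratio of -0.71 and within 2-fold. Among the reductases the directions were the reverse. Txnrd1, the cytosolic enzyme, had 21.1 TPM in the labelled knockout and 35.7 TPM in wild type, also within 2-fold. Txnrd2, the mitochondrial enzyme, had 3.99 TPM in the labelled knockout against 0.41 TPM in wild type. It reached 1 TPM only in the labelled knockout, so its direction followed from the filter. With 5 TPM added to each level in place of 1 TPM, its ratio was 0.73, within 2-fold. Txnrd3, a reductase with a glutaredoxin domain that is abundant in testis, was the main form in both libraries, at 119.7 TPM in the labelled knockout and 256 TPM in wild type. Its ratio of -1.09 fell short of 2-fold under all 3 rescalings (-0.93 to -0.69). Txnip, an inhibitor of thioredoxin, had 60.7 TPM in the labelled knockout and 40.2 TPM in wild type, within 2-fold. The antisense gene Gm15441 covers 19.4% of the exon bases of Txnip and had 5.47 TPM in the labelled knockout, against 7.88 TPM in wild type.

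The lowest ratios of all 48 genes belonged to 2 thioredoxins of developing sperm. Txndc2 (ENSMUSG00000050612; chromosome 17, 65637505 to 65642204, minus strand), annotated as a spermatozoa gene, stood at 2.10 TPM in the labelled knockout, against 23.1 TPM in wild type, 11.0-fold lower in the labelled knockout. Txndc8 (ENSMUSG00000038709; chromosome 4, 57984027 to 58009124, minus strand), also known from spermatids, stood at 1.92 TPM in the labelled knockout, against 19.9 TPM in wild type, 10.4-fold lower. Their ratios were -2.96 and -2.84. The 9 spermatid markers had a median ratio of -4.03 between the same libraries. Txndc8 and Txn1 lie near each other on chromosome 4 and went opposite ways.

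The other 7 Txndc genes differed less, with 1 of them 2-fold apart. Txndc5, a disulfide isomerase of the endoplasmic reticulum, stood at 6.44 TPM in the labelled knockout, against 0.73 TPM in wild type. Txndc9, a cofactor of protein folding, had 47.7 TPM in the labelled knockout and 88.1 TPM in wild type, and Txndc12, of the endoplasmic reticulum, had 48.9 TPM in the labelled knockout against 68.1 TPM in wild type. Txndc17, Txndc16, Txndc15 and Txndc11 had ratios of 0.78, 0.27, 0.15 and 0.13, and that of Txndc17 passed 2-fold under 2 rescalings (1.20 and 1.15). The thioredoxin-like genes went 3 ways. Txnl1, a proteasome-associated protein, had 17.3 TPM in the labelled knockout and 7.84 TPM in wild type. Txnl4a, a splicing factor, had 25.7 TPM in the labelled knockout and 26.8 TPM in wild type, a ratio of -0.06, and every rescaling made it positive. Gm16286 on the same strand overlaps 10.1% of the 4507 exon bases of Txnl4a in GENCODE M21. The deposited length of Txnl4a is 2185 bases, so the share of the quantified gene may differ. Gm16286 had 17.9 TPM in the labelled knockout and 13.0 TPM in wild type. Txnl4b, the relative of Txnl4a, had 11.7 TPM in the labelled knockout and 47.5 TPM in wild type, a ratio of -1.94.

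Promoters of the genes were compared in the RefSeq windows (GRCm38.p6), which run from 250 bases before to 50 bases after each start and were held for 47 of the 53 genes. The antioxidant response element core, through which the factor NRF2 acts, was searched as TGACNNNGC on both strands, and the cAMP response element, bound by the germ cell factor CREM, as TGACGTCA, which reads the same on both strands. The first was found in 8 of 47 genes (17.0%), against 14.0% of 27025 genes with a window. It stood in 4 of 18 higher genes (Gsta3, Gstm7, Prdx1 and Txndc5), in 1 of 9 lower genes (Txndc2) and in 3 of 15 genes within 2-fold (Gstm5, Txnrd1 and Txndc11). The second was found in 1 gene, Txnl4b (2.13%), against 2.03% of all genes. Both shares lay near those of all genes.

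Windows are printed in lower case, in the direction of the gene, with motif matches in capitals, for the mu pair that went opposite ways, for Prdx1 and for the gene that held the cAMP response element. They are Gstm5 at chr3:107895604-107895903 (plus strand), Gstm1 at chr3:108017924-108018223 (minus strand), Prdx1 at chr4:116685349-116685648 (plus strand) and Txnl4b at chr8:109565642-109565941 (plus strand).
Gstm5: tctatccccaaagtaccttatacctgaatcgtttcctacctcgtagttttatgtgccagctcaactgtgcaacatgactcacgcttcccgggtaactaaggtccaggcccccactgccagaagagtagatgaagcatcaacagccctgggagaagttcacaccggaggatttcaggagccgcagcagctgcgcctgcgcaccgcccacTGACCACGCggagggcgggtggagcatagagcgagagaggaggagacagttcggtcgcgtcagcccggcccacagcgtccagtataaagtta
Gstm1: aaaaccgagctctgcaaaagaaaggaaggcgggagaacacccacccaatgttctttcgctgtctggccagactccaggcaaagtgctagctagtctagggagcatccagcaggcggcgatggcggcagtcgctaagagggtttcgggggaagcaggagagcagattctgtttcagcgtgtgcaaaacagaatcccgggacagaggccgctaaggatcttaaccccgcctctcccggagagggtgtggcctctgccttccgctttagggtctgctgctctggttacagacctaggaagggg
Prdx1: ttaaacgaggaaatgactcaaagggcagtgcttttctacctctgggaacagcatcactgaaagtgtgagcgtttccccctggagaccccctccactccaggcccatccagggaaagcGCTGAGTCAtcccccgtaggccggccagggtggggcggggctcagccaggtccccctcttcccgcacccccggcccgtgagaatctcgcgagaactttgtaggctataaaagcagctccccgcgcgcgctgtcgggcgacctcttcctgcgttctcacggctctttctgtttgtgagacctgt
Txnl4b: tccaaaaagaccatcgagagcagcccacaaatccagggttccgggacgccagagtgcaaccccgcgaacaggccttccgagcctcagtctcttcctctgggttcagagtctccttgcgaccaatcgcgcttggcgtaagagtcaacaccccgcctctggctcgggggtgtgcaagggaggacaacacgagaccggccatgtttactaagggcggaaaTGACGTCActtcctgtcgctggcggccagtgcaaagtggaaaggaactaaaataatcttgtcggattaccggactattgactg
The Gstm5 window holds 1 match to the antioxidant response element core, which begins 42 bases before the start, and the Gstm1 window holds none. In Prdx1 the match lies on the opposite strand, with its leftmost base 133 bases before the start, and the match in Txnl4b begins 33 bases before the start.

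Other genes of glutathione and redox metabolism, 63 in 7 lists, also held genes in both directions. Of 62 at 1 TPM or more, 19 (30.6%) were 2-fold or more higher in the labelled knockout, against 18.7% of protein-coding genes, and 8 (12.9%) were 2-fold or more lower, against 16.5%, so the lower share did not exceed the background. Their median ratio was 0.26, against -0.05 for protein-coding genes. Many of the higher genes reached 1 TPM only in the labelled knockout: Gstk1, Ptges, Gsr, Chac1, Idh2, Glrx, Msrb1, Sod3, Hmox1, Bach1 and Mafk. The lower genes Ggt1 and G6pd2 reached it only in wild type. The direction of all these genes followed from the filter. Among 8 relatives of the transferases 3 were higher and 0 lower. Mgst1, a membrane-bound transferase, stood at 67.9 TPM in the labelled knockout, against 3.004 TPM in wild type, with the largest ratio of these lists (4.10). Ptges, a prostaglandin synthase, stood at 3.74 TPM in the labelled knockout, against 0.35 TPM in wild type, and Gstk1, the kappa transferase, at 2.94 TPM in the labelled knockout against 0.43 TPM in wild type.

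The next 2 lists hold the genes that supply glutathione and NADPH. Of 12 glutathione supply genes 2 were higher and 3 lower, shares near those of all protein-coding genes (18.7% and 16.5%). Gsr, which regenerates glutathione, stood at 9.05 TPM in the labelled knockout, against 0.63 TPM in wild type, and Chac1, which degrades it, at 2.93 TPM in the labelled knockout against 0.53 TPM in wild type. The lower genes were Ggt7 (4.91 TPM in the labelled knockout and 19.8 TPM in wild type), Ggt1 and Chac2. Of 7 NADPH genes 3 were higher and 2 lower. The X-linked glucose-6-phosphate dehydrogenase gene G6pdx stood at 3.87 TPM in the labelled knockout, against 1.05 TPM in wild type, whereas its autosomal copy G6pd2 stood at 0.71 TPM in the labelled knockout against 3.07 TPM in wild type. Pgd, of the same pathway, stood at 20.5 TPM in the labelled knockout, against 4.80 TPM in wild type, Idh2 at 4.25 TPM in the labelled knockout against 0.81 TPM in wild type, and Nnt, the mitochondrial transhydrogenase, at 5.93 TPM in the labelled knockout against 36.1 TPM in wild type.

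The list of superoxide dismutases and catalase (5 genes) and the NRF2 list (7 genes) held no gene 2-fold lower. The share over all protein-coding genes was 16.5%, and each list is small. The lists of transferase relatives and of selenoprotein synthesis held no lower gene either. Sod1, the cytosolic dismutase, stood at 174 TPM in the labelled knockout, against 40.9 TPM in wild type. Sod3, the extracellular one, had 2.54 TPM in the labelled knockout and 0.43 TPM in wild type, and Cat, catalase, had 3.87 TPM in the labelled knockout against 1.42 TPM in wild type. Sod2, the mitochondrial dismutase, had 24.6 TPM in the labelled knockout and 30.01 TPM in wild type, a direction that turned under 2 rescalings. Of 7 NRF2 pathway genes 5 were higher, and all 7 had a mean below 30 TPM, the range in which 24% of protein-coding genes were higher. Of the higher ones, Hmox1, Bach1 and Mafk reached 1 TPM only in the labelled knockout, so their direction followed from the filter. Nfe2l2 and Mafg each stood at 1.07 TPM in wild type, just above the filter. Nfe2l2, which encodes NRF2, had 6.83 TPM in the labelled knockout and 1.07 TPM in wild type, Hmox1 had 3.94 TPM in the labelled knockout against 0.55 TPM in wild type, and Bach1, a repressor of the same sites, had 3.02 TPM in the labelled knockout against 0.30 TPM in wild type. Keap1, the inhibitor of NRF2, had 15.6 TPM in the labelled knockout and 22.3 TPM in wild type.

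Of 15 glutaredoxin, thioredoxin-fold and methionine repair genes at 1 TPM or more, 2 were higher and 3 lower, again near the shares of all protein-coding genes. Msrb1, a selenoprotein that repairs oxidised methionine, had 5.73 TPM in the labelled knockout and 0.29 TPM in wild type, and Glrx, a cytosolic glutaredoxin, had 2.87 TPM in the labelled knockout against 0.61 TPM in wild type. Nme8, a thioredoxin-domain protein of the sperm tail, had 20.3 TPM in the labelled knockout and 94.0 TPM in wild type. Msrb3 had 20.5 TPM in the labelled knockout and 75.0 TPM in wild type, and Nxn, nucleoredoxin, had 45.5 TPM in the labelled knockout against 121 TPM in wild type.

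**Figure D5:**
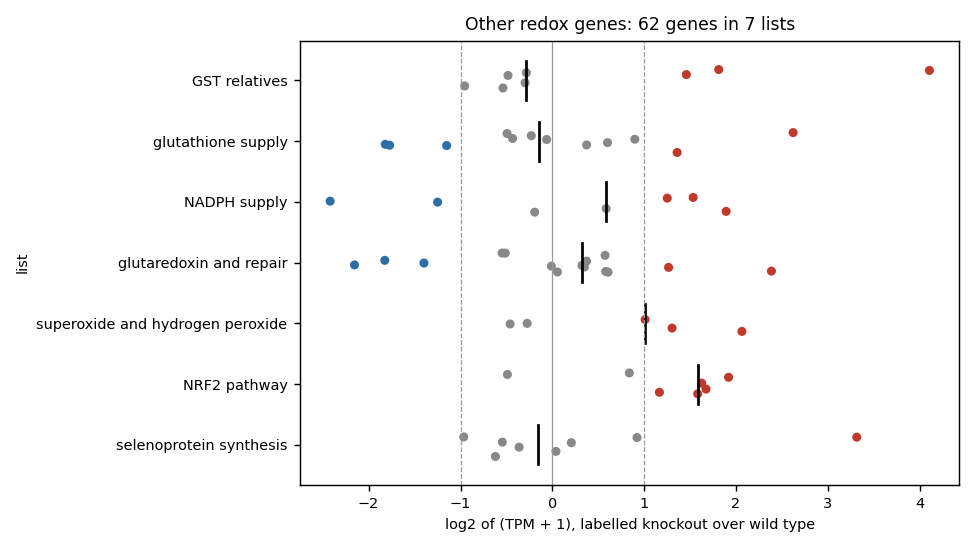
Each point is 1 gene, with its log2 ratio of (TPM + 1) in the labelled knockout over wild type on the horizontal axis and its list on the vertical axis; black bars are list medians and dashed lines mark 2-fold. Points past 2-fold stand on both sides in the glutathione supply, NADPH and glutaredoxin lists, and only on the higher side in the other 4 lists.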

How the data were processed

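The deposited table gives TPM per gene, made by the authors, in 1 column per library that sums to 1000000 over all 53801 genes. Gene length in bases and the percent of G+C per gene stand beside them, per the file headers. The submitters' processing notes name the mm10 build and the tools TopHat, GSNAP, bcl2fastq 2.19.1 and kallisto 0.43.1; what each tool did, the strand setting and the release of the annotation are not given in the sources used. Per the labels' protocols, ribosomal RNA was depleted, libraries were strand-specific and sequenced single-end over 75 bases to at least 40000000 reads.

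Groups came from the genotype labels. Because RNA levels are shares of a total, the log2 ratio with a pseudocount of 1 TPM was recomputed with pseudocounts of 0.1 and 5 TPM, after 3 rescalings (trimmed mean of log2 ratios with 30% trimmed at each end, without mitochondrial and the 20 most abundant genes, and over protein-coding genes alone), with no filter and with 5 TPM, and at 4-fold. Members and lists were chosen with earlier results of these data known. Every member at 1 TPM could be named, and in the other lists up to 3 genes in each direction; Sephs2, Sod2 and Keap1 were named after their values were seen. The list entries Selenop and Sepp1 are 1 gene. All 53 members were in GENCODE M21 (GRCm38), 45 with the same start and end, and coordinates are those of the table. Coding identity came from global alignment of the transcript with the longest coding sequence. Protein sequences were not used here. Computation ran in Python 3.11.15 with pandas 2.3.3 and NumPy 2.4.6, and plots were drawn with Matplotlib 3.10.9.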

Additional observations from a re-analysis of the deposited data

How the results depend on the processing

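No paired analysis was possible because each genotype had 1 library and no test was run, and for the same reason no replicate could be left out. The count of genes at least 2-fold higher was 20, and it was 13 with a pseudocount of 5 TPM, which shrinks the ratios of genes with low values. The count of genes at least 2-fold lower was 10, and it was 3 when counted at 4-fold. Under the other settings the higher count lay between 14 and 24 and the lower count between 7 and 10. The median log2 ratio of 0.64 lay between 0.21 (genes at 5 TPM or more) and 1.05. Over 5 settings, 13 of the 20 higher and 6 of the 10 lower genes kept their call in each. Of 240 recomputed gene ratios 15 fell short of 2-fold, 10 newly passed it, and 0 of the called ones turned sign. With a pseudocount of 5 TPM the calls of Gstp2, Gstt1, Gpx3, Gpx6, Gpx8, Txnrd2, Txndc5 and Txnl1 were lost, with ratios between -0.74 (Gpx6) and 1.00 (Txndc5). Gpx7 passed 2-fold with a pseudocount of 0.1 TPM (1.80). TPM keeps no depth, so no limit of detection can be given.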
